A study of Mus musculus with 42 samples.

Results

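The step from induced pluripotent stem cells (iPSCs) to primordial germ cell-like cells (PGCLCs) was followed in the vehicle arm of the propagation experiment, in which neither cell type had met bisphenol S (BPS). The comparison rests on 6 of 42 RNA-seq libraries, taken by their titles: 3 of PGCLCs and 3 of the iPSCs before germ cell induction. Both groups came from 1 male (XY) mouse iPSC line. It had been reprogrammed from the embryonic fibroblasts of a single fetus that carried the tetO-4F2A cassette, a doxycycline-driven transgene of Pou5f1, Sox2, Klf4 and Myc, so reads of these genes can come from the transgene as well. The PGCLC group descended from iPSCs given ethanol, the vehicle. These were turned into epiblast-like cells with activin A and bFGF and then kept as floating aggregates with BMP4, SCF, EGF and LIF, from which the few cells double positive for the surface proteins FUT4 and ITGB3 were sorted. The iPSC group was grown without feeders in N2B27 medium with 2i and LIF, held with ethanol in sealed flasks for a day, returned to plain medium for a day and harvested without a sort. Medium, aggregate culture, sorting and cell type changed together between the groups and cannot be told apart. The replicates were separate samples of 1 line, so the p-values reflect the spread among these samples alone.

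Another pair of vehicle groups, 3 libraries each, served as a second set that shares no library with the first and is called the other cultures. It holds the vehicle PGCLCs of the direct exposure experiment, which met ethanol as aggregates shortly before the sort, and the vehicle iPSCs of the dose series. The labels do not say that these PGCLCs descended from those iPSCs. The BPS lineage of the propagation experiment, 3 PGCLC and 3 iPSC libraries with iPSCs exposed to 1 μM BPS, was the third set.

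Primordial germ cells are the embryonic founders of sperm and eggs. In the mouse, BMP signals set them aside from the epiblast, and the transcription factors PRDM1, PRDM14 and TFAP2C then hold back somatic genes, keep pluripotency genes in use and come before a broad loss of DNA methylation that also reaches imprinted loci. The culture route copies this order, with the epiblast-like state in the place of the epiblast.

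Sequencing gave 28203092 to 32775190 reads over genes in the 3 PGCLC libraries and 28499755 to 35256192 in the 3 iPSC libraries. Levels are CPM, reads of a gene over a scaled library total, as the authors computed them, with 1 read worth 0.0281 to 0.0368 CPM in these 6 libraries. Differences are PGCLC minus iPSC on the log2 scale of CPM plus 0.0313, a scale on which low genes change by less than their levels do, and each is given with its standard error. A gene was called at an adjusted p of 0.05 or less (limma, Benjamini-Hochberg over all 16496 genes tested). Of these, 5763 genes (34.9%) were called higher in PGCLCs and 6611 (40.1%) lower, and 2858 (17.3%) were called and at least 2-fold higher and 1954 (11.8%) called and at least 2-fold lower. The median difference of all genes tested was -0.05. PGCLC replicate 2 stood apart: of 11835 genes that reached a CPM of 5, 68 lay at least 2-fold below and 5 at least 2-fold above the mean of the other 2 PGCLC libraries, against 9 below and 2 above for replicate 1 and 0 below and 8 above for replicate 3. Without replicate 2, 5931 genes were called higher and 6891 lower. Transcripts that poly(A) selection should leave behind, such as 28S rRNA, varied within both groups, with a summed level of 461 to 1413 CPM in PGCLCs and 558 to 2478 CPM in iPSCs.

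**Figure D1:**
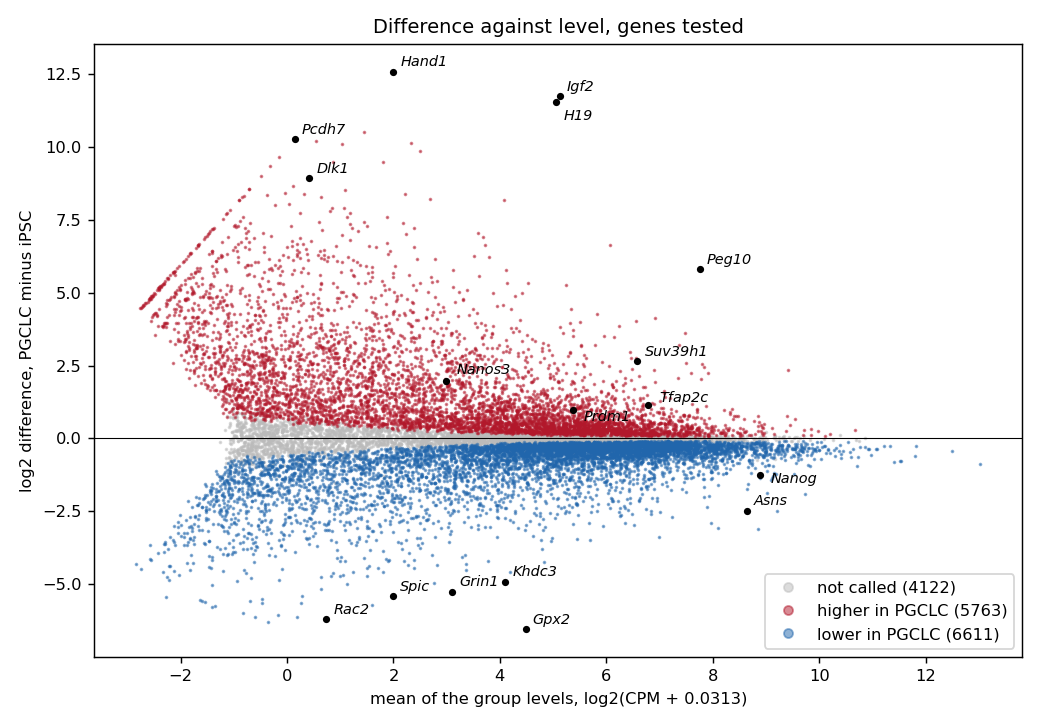
Each point is 1 of the 16496 genes tested, with the mean of the group levels in log2(CPM + 0.0313) on the x axis and the log2 difference, PGCLC minus iPSC, on the y axis. The 5763 genes called higher in PGCLCs (red) reach 12.58 for Hand1, and the 6611 called lower (blue) reach -6.54 for Gpx2. The straight edge at the upper left is made of genes with 0 reads in all 3 iPSC libraries.

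The cell type label was checked first on 4 germ cell markers, of which 3 were called higher in PGCLCs and 1 lower. Nanos3, an RNA-binding protein that keeps migrating germ cells alive, stood at 14.4, 18.0 and 14.6 CPM in PGCLCs, against 3.39, 4.43 and 4.17 CPM in iPSCs. It was 3.91-fold higher, the largest difference of the 4 (log2 1.96 ± 0.14, adjusted p 2.21e-06, limma). Tfap2c, which encodes AP-2γ, had 147.7, 200.9 and 143.3 CPM in PGCLCs, against 75, 73.1 and 74.1 CPM in iPSCs. Prdm1, the gene of BLIMP1, had 50.6, 74.3 and 50.8 CPM in PGCLCs, against 29.4, 29.0 and 29.1 CPM in iPSCs. The groups of both genes were apart, with PGCLC replicate 2 above the other PGCLC libraries, and the differences were 1.13 ± 0.11 for Tfap2c (adjusted p 2.00e-05) and 0.98 ± 0.13 for Prdm1 (adjusted p 0.000148). Nanog, a homeobox factor of naive pluripotent cells and of early germ cells, went the other way. It had 334.1, 256.3 and 323.7 CPM in PGCLCs, against 744.2, 728.5 and 714.9 CPM in iPSCs, and was 2.39-fold lower in PGCLCs (log2 -1.27 ± 0.09, adjusted p 2.31e-06). Summed over the 4 markers, the level was 532.4 to 549.5 CPM in PGCLCs and 822.2 to 852 CPM in iPSCs, since Nanog made up most of it. In these bulk libraries, fewer cells of a type and less RNA per cell cannot be told apart.

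**Figure D2:**
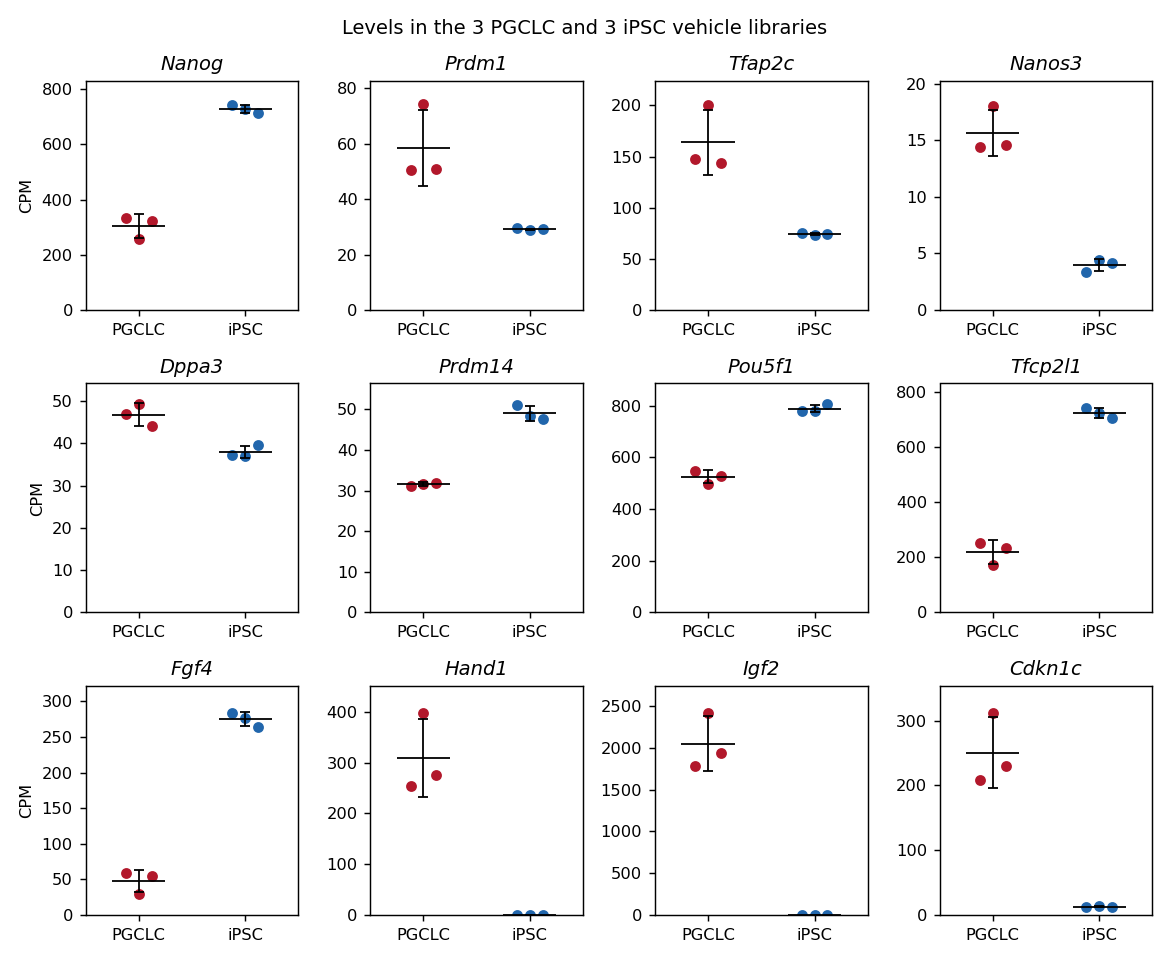
CPM of 12 genes in each of the 3 PGCLC (red) and 3 iPSC (blue) vehicle libraries, with a line at the mean and bars of 1 SD. Prdm1, Tfap2c and Nanos3 lie higher in every PGCLC library than in any iPSC library, Dppa3 slightly so, and Nanog, Prdm14, Pou5f1, Tfcp2l1 and Fgf4 lie lower. Hand1, Igf2 and Cdkn1c, at 12.8 CPM or less on average in iPSCs, lie at 208.9 CPM or more in every PGCLC library.

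Beyond the markers, the list of germ cell specification genes was mixed: of 19 members tested, 10 were called higher, 5 lower and 4 were not called, with a median difference of 0.22. Without any 1 library other than PGCLC replicate 2, 3 were called lower in place of 5. Dnd1, an RNA-binding partner of NANOS proteins that germ cells need to survive, rose most among members outside the sort gate. Its level was 41.4, 65.7 and 44.3 CPM in PGCLCs, against 6.33, 6.72 and 5.91 CPM in iPSCs (log2 2.96 ± 0.16, adjusted p 4.84e-07). Lin28a, which blocks let-7 processing and acts upstream of Prdm1, rose by less (323.5, 395.3 and 337.2 CPM in PGCLCs, against 259.1, 251.8 and 254.8 CPM in iPSCs, log2 0.46 ± 0.07). Dppa3, the gene of STELLA, which protects the maternal genome of the zygote from demethylation and marks germ cells, differed little: 46.9, 49.4 and 44 CPM in PGCLCs, against 37.2, 36.9 and 39.6 CPM in iPSCs (log2 0.30 ± 0.06, adjusted p 0.00118). Prdm14 was lower, at 31.2, 31.8 and 32.0 CPM in PGCLCs, against 51.2, 48.4 and 47.8 CPM in iPSCs (log2 -0.63 ± 0.05, adjusted p 3.94e-06). Tcl1, an AKT co-activator of early embryonic cells, was the member lowered most, with 17.1, 12.6 and 18.3 CPM in PGCLCs against 90.6, 88.9 and 89.5 CPM in iPSCs (log2 -2.50 ± 0.12). For Kit, the receptor of SCF, the groups overlapped in range: 136.6, 215.5 and 144.1 CPM in PGCLCs and 222.4, 219.6 and 215.4 CPM in iPSCs, with replicate 2 of the PGCLCs at the iPSC level (log2 -0.44 ± 0.15, adjusted p 0.0228). The call of Kit was lost without any 1 of the 3 iPSC libraries (adjusted p 0.0577 to 0.0661), without PGCLC replicate 1 (log2 -0.31, adjusted p 0.0759) and without PGCLC replicate 3 (log2 -0.35, adjusted p 0.0861). Fut4 and Itgb3, the genes of the sort, were higher by 6.41 and 2.67. Fut4 had 598 reads in the PGCLC libraries together and 5 in the iPSC libraries. The gate selected PGCLCs by the surface proteins FUT4 and ITGB3 and not by RNA. Per the paper, the iPSCs stained positive for the former protein as well. Since the PGCLCs alone were sorted on these proteins, neither difference is counted as a finding, and the part of the gate in them was not tested.

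The naive and core pluripotency list moved mostly down: of 20 members tested, 14 were called lower in PGCLCs, 1 higher and 5 were not called, with 10 of the 14 at least 2-fold lower and a median of -1.03. Fgf4, the growth factor that pushes naive cells towards the epiblast, fell most. It had 59, 29.6 and 54.7 CPM in PGCLCs, against 284.1, 277.2 and 264.5 CPM in iPSCs (log2 -2.59 ± 0.22, adjusted p 7.61e-06). Tfcp2l1, a factor of the naive network downstream of LIF, had 252.4, 170.9 and 233.2 CPM in PGCLCs, against 739.8, 723.3 and 705.1 CPM in iPSCs (log2 -1.74 ± 0.12). Klf2 was lower by a similar ratio in every PGCLC library, at 181.8 to 203.4 CPM in PGCLCs against 432.8 to 462.1 CPM in iPSCs. Both core factors stayed at high levels in PGCLCs and were lowered less. Pou5f1 stood at 548.3, 499 and 529.1 CPM in PGCLCs, against 780.3, 780.4 and 805.5 CPM in iPSCs (log2 -0.59 ± 0.04, adjusted p 2.32e-06), and Sox2 at 379.1 to 473.7 CPM in PGCLCs, against 586.5 to 598 CPM in iPSCs (log2 -0.48 ± 0.07). Tbx3 was the 1 member called higher, with 227.5 to 258.7 CPM in PGCLCs against 201.4 to 203.1 CPM in iPSCs. Replicate 2 was the lowest of the 3 PGCLC libraries for Fgf4, Tfcp2l1, Klf2, Pou5f1, Sox2, Nanog and Tbx3, and without it 5 members were called higher in place of 1, with 14 lower as before.

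Genes of the primed epiblast, the stage the protocol passes through, were split. Of 15 members tested, 10 were higher and 5 lower, with a median of 1.72. Wnt3, needed for the epiblast to answer BMP4, stood at 23.7, 26.3 and 25.6 CPM in PGCLCs, against 0.957, 0.881 and 0.79 CPM in iPSCs (log2 4.80 ± 0.12, adjusted p 9.39e-09). Fgf8, a signal of the primitive streak, was at 12.9, 12.5 and 14 CPM in PGCLCs and at 0.258, 0.235 and 0.0632 CPM in iPSCs. Sox3 and Cdh2, the gene of N-cadherin, rose by 4.35 ± 0.18 and 2.56 ± 0.07. The members that fell were Otx2, Zic2, Zic5, Dnmt3b and Foxd3, of which Foxd3 lost its call without any 1 of the 3 iPSC libraries (adjusted p 0.0692 to 0.135). Otx2, a factor of the primed state that opposes germ cell entry in the mouse, had 0.892, 0.754 and 1.04 CPM in PGCLCs, against 5.08, 5.26 and 5.31 CPM in iPSCs (log2 -2.51 ± 0.17, adjusted p 1.73e-06). The E-cadherin gene Cdh1 mirrored Cdh2, with 326.4 to 368.2 CPM in PGCLCs and 848.4 to 916.3 CPM in iPSCs (log2 -1.35 ± 0.05).

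Genes of mesoderm and endoderm were higher in 14 of 18 members tested and lower in 1, with a median of 2.26. Hand1, a bHLH factor of extraembryonic mesoderm and trophoblast, had the largest difference of all genes at a mean of at least 5 CPM. It had 253.6, 397.4 and 275.1 CPM in PGCLCs, against 2 reads in the 3 iPSC libraries together, a ratio of 14150 (95% interval of the reads 3917 to 116849). Msx1 and Msx2, homeobox targets of BMP, rose by 7.0 ± 0.19 and 9.48 ± 0.38. Cdx2, a caudal factor of the posterior embryo and the trophoblast, was at 67, 102 and 75.1 CPM in PGCLCs, against 3.20, 3.26 and 3.57 CPM in iPSCs. The mesoderm factor T, which acts on Prdm1 and Prdm14 in the mouse, changed less, with 40.6, 38.5 and 44 CPM in PGCLCs and 20.7, 22.3 and 22.3 CPM in iPSCs (log2 0.92 ± 0.07). Gsc, an organizer gene, was the 1 member called lower (0.662, 0.197 and 0.674 CPM in PGCLCs, against 3.02, 4.29 and 3.60 CPM in iPSCs). Mesp2 and Foxa2 were too low to be tested.

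HOX genes, which give cells their position along the body axis, were mostly higher in PGCLCs. Of 26 genes, 24 could be tested, and 23 of these were higher and 1 lower, with 21 at least 2-fold higher and a median of 4.14. Hoxd9, a gene of the posterior body and limbs, had 32.3, 38.7 and 34.6 CPM in PGCLCs, against 1.62, 1.15 and 1.49 CPM in iPSCs (log2 4.62 ± 0.14, adjusted p 2.52e-08). Hoxa9 had 21.5, 23.0 and 23.2 CPM in PGCLCs, against 0.184, 0.176 and 0.0948 CPM in iPSCs (log2 6.99 ± 0.23). Hoxb6 had 763 reads in the PGCLC libraries together and 1 in the iPSC libraries, a ratio of 702 (95% interval of the reads 126 to 27781). Hoxb1 and Hoxb5 had 0 reads in iPSCs and were at least 34.7-fold and at least 33.8-fold higher, with 3 reads over the group as the floor. Hoxc4 alone was lower, with 5.06, 5.83 and 5.20 CPM in PGCLCs against 10.6, 10.2 and 10.4 CPM in iPSCs (log2 -0.95 ± 0.10, adjusted p 2.11e-05). Summed over the 26 genes, the level was 187.2 to 217 CPM in PGCLCs and 30.7 to 31.2 CPM in iPSCs.

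Imprinted genes, which are used from 1 parental copy, were mostly higher in PGCLCs. Of 29 tested, 23 were higher and 3 lower, with 19 at least 2-fold higher and a median of 2.25. Igf2, the fetal growth factor, stood at 1788, 2419 and 1938 CPM in PGCLCs, against 0.589, 0.587 and 0.506 CPM in iPSCs (3655-fold, log2 11.75 ± 0.11, adjusted p 2.09e-10). H19, the noncoding RNA that neighbours Igf2 and is used from the other parental copy, had 1686, 1982 and 1702 CPM in PGCLCs, against 0.662, 0.734 and 0.379 CPM in iPSCs (log2 11.53 ± 0.20). Both genes of this locus on chromosome 7 were thus under 1 CPM in all iPSC libraries and at 1686 CPM or more in all PGCLC libraries. Peg10, a retrotransposon-derived placental gene, rose to 1413, 1954 and 1491 CPM in PGCLCs, against 29.1, 30.2 and 27.3 CPM in iPSCs (log2 5.80 ± 0.11). Cdkn1c, an inhibitor of cyclin-dependent kinases used from the maternal copy, had 208.9, 312.2 and 229.1 CPM in PGCLCs, against 12.8, 13.3 and 12.2 CPM in iPSCs (19.6-fold, log2 4.27 ± 0.13). Grb10, Igf2r and Gnas, which act in growth factor and receptor signalling, rose by 4.14 ± 0.09, 2.56 ± 0.08 and 2.25 ± 0.06. Dlk1 had 2841 reads in PGCLCs and 3 in iPSCs, a ratio of 872 (95% interval 298 to 4230), while Meg3 of the same locus was at 176.4 to 193.4 CPM in PGCLCs and 106.8 to 123.9 CPM in iPSCs. The members called lower were Slc22a18 (-1.07 ± 0.10), Kcnq1ot1 (-0.57 ± 0.08) and Plagl1 (-0.50 ± 0.08). These data hold total levels, so the parental copy in use was not measured.

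**Figure D3:**
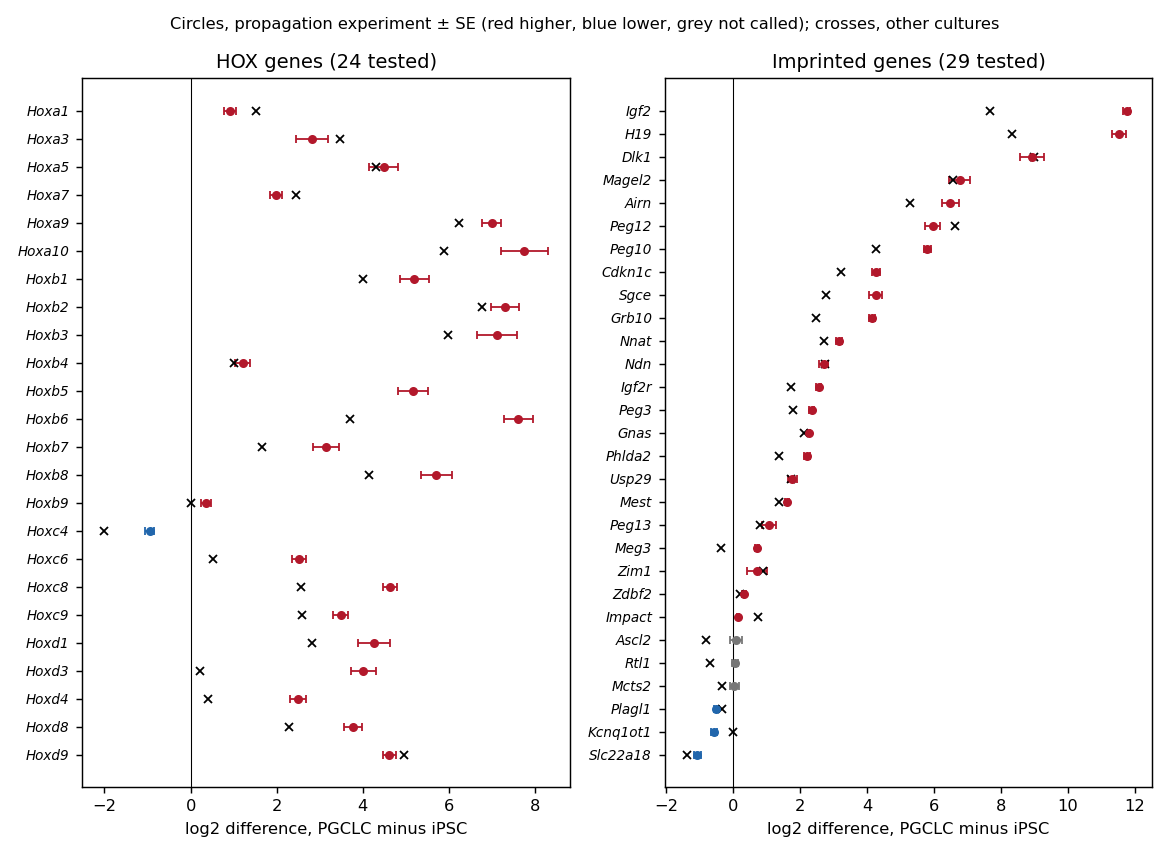
Log2 difference, PGCLC minus iPSC, for the 24 HOX and 29 imprinted genes tested. Circles with bars of 1 SE show the propagation experiment (red called higher, blue called lower, grey not called) and crosses show the other cultures, where Hoxb5 was not tested. Hoxc4 lies left of 0 in both sets, and Igf2 and H19 lie furthest right.

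The 15 called genes with the largest increase held Hand1, Igf2, H19, Msx2 and Dlk1. The others were Unc5c, a netrin receptor (10.51), Pcdh7, a protocadherin, Tmem119, a membrane protein of bone-forming cells and microglia, Pmp22 of myelin (10.13), Rgs5 of pericytes, the matrix protease gene Mmp9 (9.88), the carbonic anhydrase gene Car4, Ccdc80, the smooth muscle gene Tagln and 1 locus with no gene name. Mmp9 had 186.9, 127.7 and 198 CPM in PGCLCs, against 0.221, 0.147 and 0.0948 CPM in iPSCs. Pcdh7 had 3891 reads in PGCLCs and 0 in iPSCs, which makes it at least 1194-fold higher. With 0 reads in iPSCs as well, Car4 was at least 788-fold and Ccdc80 at least 500-fold higher (3 reads over the group as the floor). Tmem119, Rgs5 and Tagln had 1, 3 and 2 reads in iPSCs, with ratios of 4438 (95% interval of the reads 796 to 175308), 1990 (681 to 9651) and 981 (271 to 8109). In every one of these 15 genes, each PGCLC library lay above each iPSC library, which the rule for naming required.

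Marker lists of other cell types were set beside the germ cell genes. Fibroblast and feeder markers were higher in 10 of 12 members tested and lower in none. Col1a1, the type I collagen gene, had 244.1, 358.8 and 256.9 CPM in PGCLCs, against 0.773, 0.881 and 1.26 CPM in iPSCs (log2 8.17 ± 0.19). The 3 members too low to be tested were Postn, with 41 reads in PGCLCs and 1 in iPSCs (a ratio of 37.7, 95% interval 6.41 to 1527), Dcn, with 7 and 0 reads, and Lum, with 3 and 1. The summed level of the 15 fibroblast genes was 2296 to 2382 CPM in PGCLCs and 1824 to 1949 CPM in iPSCs, most of it Fn1, which was not called (1766 to 1939 CPM in PGCLCs and 1813 to 1939 CPM in iPSCs). Trophoblast markers were higher in 8 of 11 and lower in 2, with a summed level of 955.8 to 1466 CPM in PGCLCs and 209.8 to 221.8 CPM in iPSCs. Krt18, a keratin of simple epithelia, had 190.2, 315.2 and 200.2 CPM in PGCLCs, against 6.0, 6.25 and 5.72 CPM in iPSCs. Tfap2a and Tfeb were the trophoblast members called lower. Endothelial and blood markers were higher in 6 of 8 and lower in 1. They summed to 113.8 to 121.8 CPM in PGCLCs and 21.3 to 24.2 CPM in iPSCs. Pecam1 and Vwf, endothelial genes outside this list, went the other way. Their mean levels were 35.2 CPM in PGCLCs and 80.6 CPM in iPSCs for Pecam1. For Vwf they were 1.19 CPM in PGCLCs and 37.3 CPM in iPSCs, so the gap between the sums depends on the members chosen. In the list, 3 members were too low to be tested: Lyl1, with 66 reads in PGCLCs and 13 in iPSCs, Gata1, with 5 and 15, and the embryonic globin gene Hba-x, with 0 in all 6 libraries. Extraembryonic endoderm markers were higher in 7 of 9 and lower in 1, summing to 293.1 to 318.2 CPM in PGCLCs and 215.2 to 220.5 CPM in iPSCs, with Foxa2 (50 reads in PGCLCs and 13 in iPSCs) and Apoa1 (8 and 15) too low to be tested. Sertoli and granulosa markers, summing to 98.5 to 106.6 CPM in PGCLCs and 19.2 to 20.1 CPM in iPSCs, were higher in 7 of 8, with most of the sum from Clu. The 5 members too low to be tested were Cldn11, with 65 reads in PGCLCs and 2 in iPSCs (a ratio of 29.9, 95% interval 7.96 to 252), Inhba, with 14 and 0, Nr5a1, with 2 and 0, Fshr, with 1 and 0, and Cst9, with 0 in all 6 libraries. Neural markers were lower in 4 of 5 and summed to 111.4 to 124 CPM in PGCLCs and 228.2 to 246.9 CPM in iPSCs, led by Tubb3 (-2.16 ± 0.05). The summed levels were tested for 10 lists, and for each of them except the rRNA-type transcripts (p = 0.6) the exact two-sided permutation test gave p = 0.1, the smallest that 3 against 3 libraries allow. PGCLC replicate 2, the lowest in the pluripotency genes above, was the highest in the trophoblast sum. The part of other cell types in any difference described here was not tested.

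**Figure D4:**
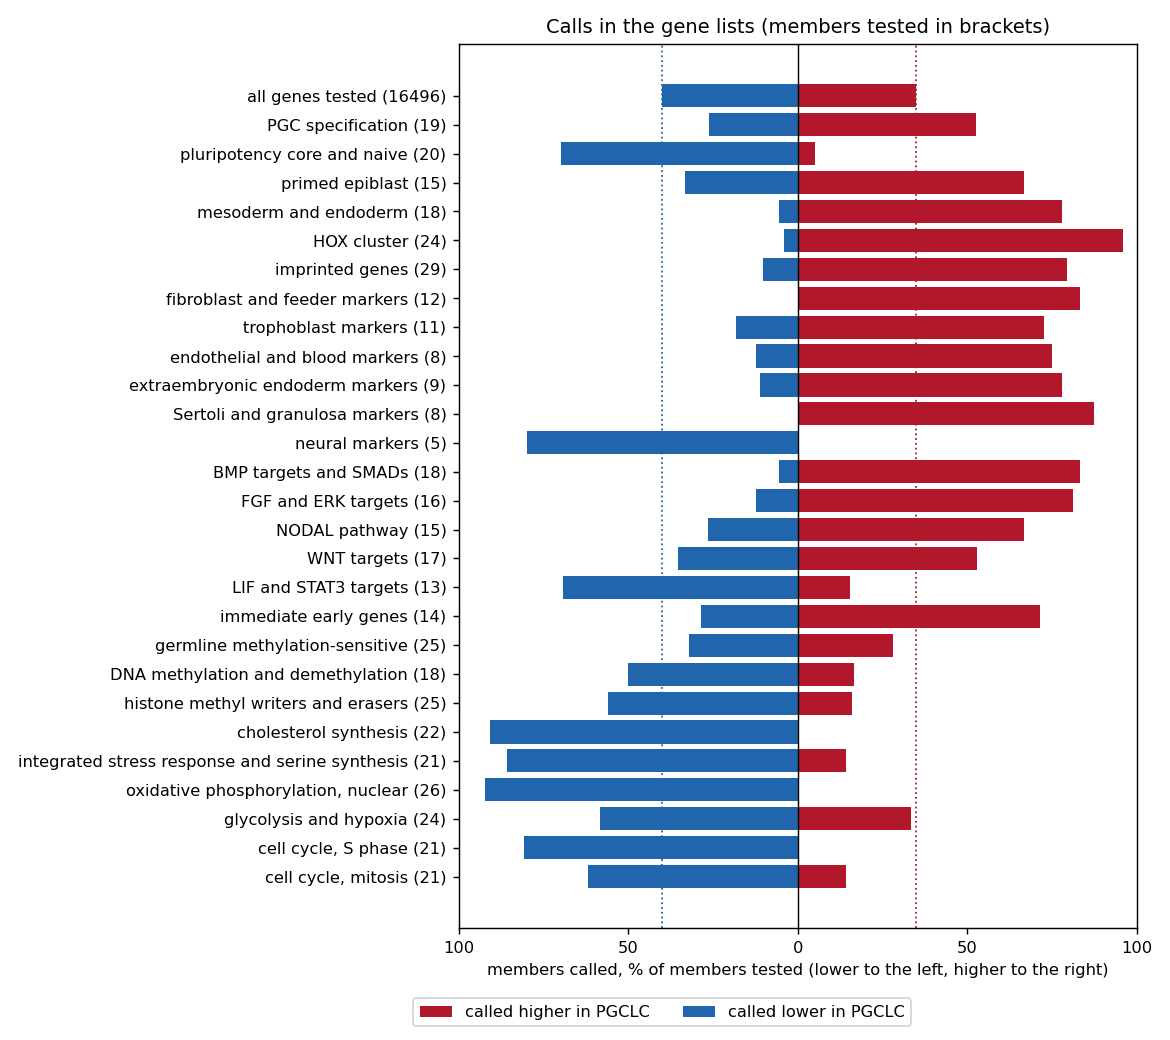
Share of the members tested, in %, that were called lower (blue, to the left) and higher (red, to the right) in PGCLCs for 27 gene lists, with the number tested in brackets. The top bar and dotted lines show all 16496 genes tested, at 34.9% higher and 40.1% lower. HOX, fibroblast and BMP lists extend to the right of it and oxidative phosphorylation, cholesterol and S phase lists to the left.

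The signals named in the protocol were followed through their target genes. BMP targets and SMADs rose in 15 of 18 members tested and fell in 1, with a median of 1.39. Id1, an inhibitor of bHLH factors and direct BMP target, had 127.2, 119.3 and 137.7 CPM in PGCLCs, against 9.83, 11 and 10.1 CPM in iPSCs (log2 3.63 ± 0.07, adjusted p 3.94e-09). Id2 and Id3 rose by 3.44 ± 0.12 and 1.82 ± 0.04, and the feedback inhibitors Smad6 and Bambi by 3.33 ± 0.12 and 2.96 ± 0.08. Id4 was the member called lower (-0.38 ± 0.12), a call lost without iPSC replicate 3 (adjusted p 0.0785), PGCLC replicate 1 (0.0661) or PGCLC replicate 3 (0.0708). Genes of FGF and ERK signalling were higher in 13 of 16 and lower in 2, with a median of 1.18. The ERK phosphatase gene Dusp4 had 74.2, 73 and 74.7 CPM in PGCLCs, against 3.02, 2.88 and 3.54 CPM in iPSCs (log2 4.55 ± 0.09). Dusp6 and Spry4, further brakes on ERK, rose by 1.98 ± 0.07 and 2.23 ± 0.15, and the members that fell were Etv5 and Ccnd1. The iPSC medium held 2i, a pair of inhibitors of MEK and GSK3, and the PGCLC medium was listed without them.

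WNT targets were divided, with 9 of 17 higher and 6 lower. Dkk1, a secreted WNT antagonist, had 24.5, 36.4 and 29.2 CPM in PGCLCs, against 2.39, 2.35 and 2.34 CPM in iPSCs (log2 3.63 ± 0.14). Apcdd1 and Nkd1, further WNT inhibitors, rose by 2.44 and 1.93. Among those lower, Notum, a WNT-inactivating enzyme, had 22.3, 24.5 and 21.1 CPM in PGCLCs, against 97.9, 99.0 and 102.4 CPM in iPSCs (log2 -2.14 ± 0.06), Sp5 differed by -2.36 ± 0.17 and Axin2 by -0.66 ± 0.06. Among LIF and STAT3 targets, 9 of 13 were lower, and 2, Junb and Osmr, were higher. In the NODAL pathway, 10 of 15 were higher and 4 lower, a count of lower members that came to 2 without any 1 iPSC library. The NODAL antagonist Lefty2 fell to 261.2, 254.9 and 267.3 CPM in PGCLCs, against 469.4, 469.5 and 468.8 CPM in iPSCs (log2 -0.85 ± 0.03, adjusted p 7.31e-08). Immediate early genes, which answer growth factors and cell handling alike, were higher in 10 of 14, among them Jun (2.12 ± 0.09) and Fosb (3.44 ± 0.23).

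Writers and erasers of DNA methylation changed in both directions: of 18 tested, 3 were higher, 9 lower and 6 not called, and without PGCLC replicate 2, 6 were higher and 10 lower. Uhrf1, which brings the maintenance methyltransferase to newly copied DNA, fell to 266.1, 184.5 and 260.4 CPM in PGCLCs, against 700.5, 694.8 and 704.2 CPM in iPSCs (log2 -1.58 ± 0.12, adjusted p 4.06e-06). Dnmt1, the maintenance enzyme itself, fell by 0.25, with 459.1 to 470.1 CPM in PGCLCs and 539.7 to 572.2 CPM in iPSCs. The de novo enzymes moved apart, Dnmt3b to 77.4, 42.7 and 73.8 CPM in PGCLCs against 151.2, 141.6 and 140 CPM in iPSCs (log2 -1.21 ± 0.19), and Dnmt3a to 82.9, 70.8 and 84.9 CPM in PGCLCs against 52, 48.6 and 47.6 CPM in iPSCs (log2 0.68 ± 0.07). Their cofactor gene Dnmt3l was not called. It had 26.2, 3.64 and 20.3 CPM in PGCLCs, replicate 2 being far below the other PGCLC libraries, and 5.59, 5.93 and 6.42 CPM in iPSCs. Tet3, a 5-methylcytosine oxidase, rose to 22.1, 25.5 and 24.0 CPM in PGCLCs, against 2.36, 2.82 and 1.86 CPM in iPSCs (10.2-fold, log2 3.35 ± 0.15), while Tet1 was lower (-0.53 ± 0.09) and Tet2 was not called.

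Of 25 histone methyl writers and erasers, 14 were lower and 4 higher, and most differences were small (median -0.13). Suv39h1, which lays down H3K9me3 on constitutive heterochromatin, was the exception in size. It stood at 216, 273.6 and 231.8 CPM in PGCLCs, against 39.9, 37.3 and 37.1 CPM in iPSCs (6.32-fold, log2 2.65 ± 0.08, adjusted p 2.29e-08). Setdb1, another H3K9 methyltransferase gene, fell by 0.55, with 143.9 to 156.2 CPM in PGCLCs and 214.3 to 222.2 CPM in iPSCs. Suz12, Eed and Ezh2 of the Polycomb complex fell by 0.50, 0.51 and 0.31.

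Germline genes silenced by promoter DNA methylation in somatic cells, a group that demethylation switches on in the embryo, had no common direction: 7 of 25 tested were higher, 8 lower and 10 were not called, with a median of 0.08. Many of their promoters hold CACGTG, the E-box bound by the MGA and MAX repressor complex. This motif, read the same on both strands, was searched in the window from 250 bases before to 50 bases after each RefSeq gene start (GRCm38.p6, 1 window or more per gene). It was found for 13 of the 26 members with a window, of which 5 were higher, 2 lower and 6 not called, while the 13 members without it had 2 higher, 6 lower, 2 not called and 3 not tested. Of all 12101 tested genes with a window, 11.4% hold the motif. For 4 members 1 window each is shown, 2 that rose (Ddx4, Tdrd1) and 2 that fell (Hormad1, Fkbp6), 5′ to 3′ with CACGTG in capitals. Tdrd1 has 3 windows and Hormad1 and Fkbp6 have 2 each, of which the first with the motif is shown. Ddx4 lies at chr13:112652261-112652560 on the minus strand, Tdrd1 at chr19:56825959-56826258 on the plus strand, Hormad1 at chr3:95559427-95559726 on the plus strand and Fkbp6 at chr5:135349995-135350294 on the minus strand.
Ddx4: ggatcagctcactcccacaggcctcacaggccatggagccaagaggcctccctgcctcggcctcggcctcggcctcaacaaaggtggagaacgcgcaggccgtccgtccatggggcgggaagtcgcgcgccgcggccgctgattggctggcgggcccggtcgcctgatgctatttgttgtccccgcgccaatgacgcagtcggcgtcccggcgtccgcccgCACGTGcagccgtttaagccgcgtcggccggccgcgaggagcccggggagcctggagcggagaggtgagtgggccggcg
Tdrd1: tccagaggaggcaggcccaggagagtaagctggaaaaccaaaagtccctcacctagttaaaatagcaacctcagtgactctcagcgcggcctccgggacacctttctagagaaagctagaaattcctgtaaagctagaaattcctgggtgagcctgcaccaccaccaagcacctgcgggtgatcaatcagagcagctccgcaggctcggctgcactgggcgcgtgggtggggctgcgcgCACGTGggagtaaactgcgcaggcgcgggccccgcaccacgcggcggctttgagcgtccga
Hormad1: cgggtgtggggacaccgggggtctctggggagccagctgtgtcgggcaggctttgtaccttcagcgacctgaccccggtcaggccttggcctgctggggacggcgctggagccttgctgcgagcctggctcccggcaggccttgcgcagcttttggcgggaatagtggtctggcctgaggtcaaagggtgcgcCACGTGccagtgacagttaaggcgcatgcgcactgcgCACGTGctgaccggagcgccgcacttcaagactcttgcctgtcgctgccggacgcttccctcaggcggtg
Fkbp6: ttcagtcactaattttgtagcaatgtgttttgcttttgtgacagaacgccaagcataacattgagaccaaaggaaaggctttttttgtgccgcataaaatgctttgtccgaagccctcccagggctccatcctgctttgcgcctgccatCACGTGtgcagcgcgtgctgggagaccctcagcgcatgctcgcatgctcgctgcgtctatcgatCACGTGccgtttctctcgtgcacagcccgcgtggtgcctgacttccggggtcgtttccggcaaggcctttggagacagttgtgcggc

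Ddx4, the germ cell RNA helicase known as VASA, had 11.3, 9.04 and 10.7 CPM in PGCLCs, against 6.04, 5.29 and 5.25 CPM in iPSCs (log2 0.90 ± 0.12, adjusted p 0.000106), with the motif 29 bases before the start. Tdrd1, a Tudor protein of the piRNA pathway, had 1.47, 2.26 and 2.19 CPM in PGCLCs, against 0.368, 0.558 and 0.379 CPM in iPSCs (log2 2.10 ± 0.27). Both stayed at low levels in both groups. Hormad1, a protein of meiotic chromosome axes, had 2.13, 1.05 and 1.74 CPM in PGCLCs, against 4.34, 4.99 and 4.33 CPM in iPSCs (log2 -1.51 ± 0.25), and the window shown holds the E-box 2 times. Fkbp6, an immunophilin of the piRNA pathway with 2 matches as well, had 5.26, 3.47 and 5.17 CPM in PGCLCs, against 37.5, 37.9 and 37.4 CPM in iPSCs (log2 -3.04 ± 0.15, adjusted p 2.91e-07). The same 6 letters thus stood in windows of genes that rose and of genes that fell. Rpl10l and Tuba3a, testis copies of a ribosomal protein and a tubulin gene, fell by 3.13 and 4.07, and Dazl, the germ cell RNA-binding protein, had 2.49 to 4.95 CPM in PGCLCs and 6.93 to 8.57 CPM in iPSCs (log2 -0.96 ± 0.25).

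Genes of the integrated stress response and serine synthesis were lower in 18 of 21 members and higher in 3, with 11 at least 2-fold lower and a median of -1.02. ATF4 drives many of them through TGATGNAA, the core of the C/EBP-ATF response element. On either strand, these letters were found in the windows of 6 of the 19 members with one, of which 5 were lower and 1 higher, against 11 lower and 2 higher among the 13 members without. They stand in 2.81% of the 12101 tested genes with a window. The 4 windows below carry the match in capitals and belong to the members with it that differed most, 3 lower and 1 higher. Vldlr has 2 windows, of which the first with the match is shown. Asns lies at chr6:7693160-7693459 on the minus strand, Trib3 at chr2:152344011-152344310 on the minus strand, Chac1 at chr2:119350992-119351291 on the plus strand and Vldlr at chr19:27216770-27217069 on the plus strand.
Asns: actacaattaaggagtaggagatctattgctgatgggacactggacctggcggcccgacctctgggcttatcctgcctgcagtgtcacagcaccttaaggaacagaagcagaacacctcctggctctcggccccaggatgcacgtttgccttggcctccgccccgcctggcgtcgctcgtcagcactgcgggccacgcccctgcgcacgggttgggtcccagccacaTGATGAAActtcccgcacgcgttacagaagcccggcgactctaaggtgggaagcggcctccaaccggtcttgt
Trib3: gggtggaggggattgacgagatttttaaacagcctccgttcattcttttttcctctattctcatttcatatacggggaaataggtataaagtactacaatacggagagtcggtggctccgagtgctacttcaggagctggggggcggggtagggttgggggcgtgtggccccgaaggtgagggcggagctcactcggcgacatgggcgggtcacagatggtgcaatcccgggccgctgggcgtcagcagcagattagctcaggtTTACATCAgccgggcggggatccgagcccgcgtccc
Chac1: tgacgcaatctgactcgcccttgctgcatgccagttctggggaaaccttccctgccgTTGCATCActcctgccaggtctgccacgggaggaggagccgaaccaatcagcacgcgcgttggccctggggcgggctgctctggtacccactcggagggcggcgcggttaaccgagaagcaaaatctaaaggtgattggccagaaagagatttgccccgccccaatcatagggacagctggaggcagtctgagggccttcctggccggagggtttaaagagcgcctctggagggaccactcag
Vldlr: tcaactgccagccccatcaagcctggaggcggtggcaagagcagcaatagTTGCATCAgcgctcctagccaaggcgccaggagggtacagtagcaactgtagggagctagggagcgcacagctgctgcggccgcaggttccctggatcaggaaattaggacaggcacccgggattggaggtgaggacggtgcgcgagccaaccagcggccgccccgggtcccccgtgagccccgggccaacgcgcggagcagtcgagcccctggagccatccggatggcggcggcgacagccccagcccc

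Asns, the asparagine synthetase gene, had 184.9, 146.1 and 178.3 CPM in PGCLCs, against 950.2, 947.6 and 931.4 CPM in iPSCs, 5.56-fold lower in PGCLCs (log2 -2.48 ± 0.08, adjusted p 2.81e-08). Trib3, a pseudokinase gene switched on by ATF4, had 6.96, 6.0 and 6.94 CPM in PGCLCs, against 42.8, 45.9 and 43.6 CPM in iPSCs (log2 -2.73 ± 0.08). Chac1, a glutathione-degrading enzyme gene, had 1.81, 0.983 and 1.26 CPM in PGCLCs, against 6.37, 6.4 and 6.67 CPM in iPSCs (log2 -2.28 ± 0.21). Psat1, Phgdh and Aldh18a1, enzymes of serine and proline synthesis whose windows lack the letters, fell by 1.99, 1.38 and 1.55. Against this direction, Vldlr rose to 14.3, 11 and 14.8 CPM in PGCLCs, against 2.25, 3.11 and 2.31 CPM in iPSCs (log2 2.38 ± 0.17), and Cebpb and Ddit4 rose by 2.42 and 1.00.

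Other lists of metabolism were measured too. Nuclear genes of oxidative phosphorylation were lower in 24 of 26 members and higher in none, none of them by 2-fold, with a median of -0.45. Atp5o, a subunit of ATP synthase, had 178.7, 178.9 and 174.9 CPM in PGCLCs, against 298.9, 290.5 and 298.3 CPM in iPSCs (log2 -0.74 ± 0.03, adjusted p 1.45e-07). Genes of cholesterol synthesis were lower in 20 of 22, 7 of them at least 2-fold, and higher in none, or in 1 without PGCLC replicate 2. Fdps, the farnesyl diphosphate synthase gene, had 59.9, 61.2 and 60.3 CPM in PGCLCs, against 170.7, 178.1 and 180.7 CPM in iPSCs (log2 -1.54 ± 0.04). Insig1 and Dhcr7, both targets of SREBP2, fell by 1.58 and 1.77. In glycolysis and the hypoxia response, 14 of 24 members were lower and 8 higher, with 4 in each direction at least 2-fold. In the other cultures 11 of 24 were lower and 13 higher. Hk1, the hexokinase gene, fell to 55.5, 56.3 and 54.7 CPM in PGCLCs, against 184.7, 182.4 and 180.7 CPM in iPSCs (log2 -1.72 ± 0.03). The glucose carriers Slc2a1 and Slc2a3 rose slightly (0.33 and 0.27), and Vegfa, the vessel growth factor, rose by 2.22 ± 0.08.

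Of 21 S phase genes, 17 were lower and 0 higher, all by less than 2-fold, such as the replication licensing genes Mcm3 and Mcm5 (-0.65 each). In the other cultures 8 of the 21 were lower and 7 higher. Of 21 mitosis genes, 13 were lower and 3 higher, with a count of 1 higher without iPSC replicate 1 or iPSC replicate 3. Cenpf, a kinetochore protein, was higher, with 289.4, 312 and 271.6 CPM in PGCLCs against 151.8, 147.4 and 144.3 CPM in iPSCs (log2 0.97 ± 0.05). The cyclin D genes differed in direction. Ccnd2 rose to 62.2, 75.3 and 65.2 CPM in PGCLCs, against 6.18, 4.82 and 5.09 CPM in iPSCs, and Ccnd1 fell to 137.4, 101.9 and 135.9 CPM in PGCLCs, against 319.6, 310.7 and 305.8 CPM in iPSCs. Ccnd3 was higher, with a mean of 273.1 CPM in PGCLCs and 190.1 CPM in iPSCs (log2 0.52). The growth arrest genes Gadd45g and Gadd45a rose by 4.44 ± 0.12 and 2.06 ± 0.06, while Cdkn1a, the p21 gene, fell by 0.98.

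Among the 15 largest decreases, Gpx2, a glutathione peroxidase gene, came first. It had 3.94, 0.786 and 2.84 CPM in PGCLCs, against 195.2, 191.5 and 199.8 CPM in iPSCs (log2 -6.54 ± 0.48, adjusted p 3.17e-06). Its pseudogene Gpx2-ps1 also fell (-5.71), but the sequences are close enough that reads can be shared. Khdc3, a maternal-effect gene of the egg and early embryo, had 3.97, 1.90 and 3.60 CPM in PGCLCs, against 89.3, 93.3 and 92.1 CPM in iPSCs (log2 -4.91 ± 0.23). Rac2, a GTPase of blood cells (-6.21), Pdzrn4, a ubiquitin ligase family gene (-5.63), the macrophage factor Spic (-5.42), the glutamate receptor gene Grin1 (-5.26), the von Willebrand factor gene Vwf (-4.97), Khdc1c (-4.73) and Srarp (-4.72) were the others with names, beside 5 predicted genes. At the top of the level scale, per kilobase of exon, Eef1a1, Rplp1 and Hsp90ab1 were among the 5 highest genes in PGCLCs and Eef1a1, Rplp1 and Ptma in iPSCs. The translation factor gene Eef1a1, the highest in both groups, was at 2461 CPM per kilobase in PGCLCs and 4557 in iPSCs.

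In the other cultures, 6607 of 16665 genes tested (39.6%) were called higher in PGCLCs and 7071 (42.4%) lower. Of the 5763 genes called higher in the propagation experiment, 5570 were tested there too and 4653 of these were called higher (83.5%, and 73.2% of the 6354 called higher there), 257 lower. Of the 6611 called lower, 6523 were tested there and 5271 were called lower (80.8%, and 76% of the 6935 called lower there), 485 higher. The 4 markers kept their directions, with differences of -0.72 for Nanog, 1.05 for Prdm1, 1.01 for Tfap2c and 1.65 for Nanos3. Dppa3 did not, with a difference of -0.86 in the other cultures and of 0.30 in the propagation experiment. Prdm14, called lower in the propagation experiment (-0.63), differed by -0.07 in the other cultures and was not called there (adjusted p 0.106, limma). In the lists, pluripotency genes were lower in 15 of 20 and HOX genes higher in 22 of 25 in the other cultures as well, while S phase genes, with 7 of 21 higher and 8 lower, glycolysis and hypoxia genes, with 13 of 24 higher and 11 lower, and germline genes, with 12 of 24 higher and 6 lower, had another balance there than in the propagation experiment. PGCLC replicate 1 stood apart in the other cultures, with a mean chi-square per gene of 40.9 and 38.2 against the other PGCLC libraries, which differed by 2.02. Without it, 6498 genes were called higher and 6904 lower.

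**Figure D5:**
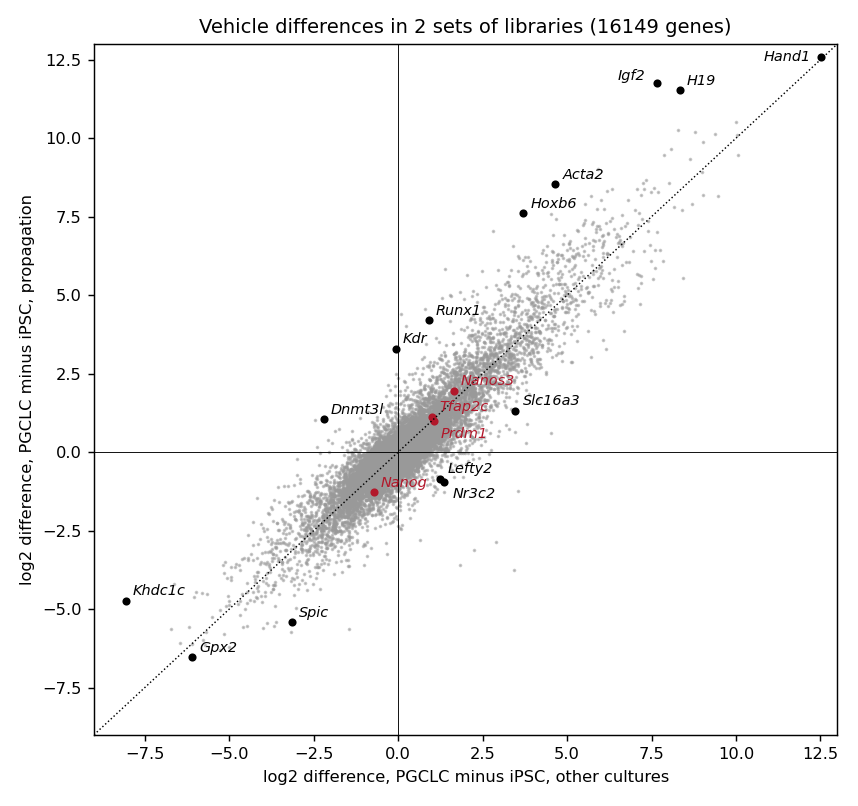
Log2 difference, PGCLC minus iPSC, in the other cultures (x axis) and the propagation experiment (y axis) for the 16149 genes tested in both, with a dotted line where both are equal. Of these genes, 13304 have the same sign in both sets. Germ cell markers are in red, and Igf2, Acta2 and Runx1 lie above the line and Slc16a3 and Lefty2 below it.

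The size of the step differed between the sets for many genes. In a fit of all 12 libraries, the interaction of cell type and experiment was called for 7527 of 17288 genes (43.5%), and for 1411 of them (8.16%) the differences were at least 2-fold apart. Runx1, a factor of blood formation, had 13, 15.8 and 11.5 CPM in PGCLCs of the propagation experiment against 0.662, 0.587 and 0.853 CPM in its iPSCs (log2 4.21 ± 0.18), but differed by 0.90 in the other cultures (interaction adjusted p 7.98e-08). Kdr, the VEGF receptor gene of endothelial precursors, rose by 3.30 ± 0.15 in the propagation experiment, with 21.2, 17.2 and 23.8 CPM in PGCLCs and 2.36, 2.03 and 1.83 CPM in iPSCs, and differed by -0.07 in the other cultures (interaction adjusted p 4.30e-07). Dnd1 rose by 2.96 and by 1.24 in the other cultures, Igf2 by 11.75 and by 7.66, and Suv39h1 by 2.65 and by 1.32, and the interaction was called for each. Lefty2 fell by 0.85 in the propagation experiment and rose by 1.25 in the other cultures. For Prdm14 the interaction was called as well (-0.56, interaction adjusted p 3.66e-06). The sets differed in experiment, vehicle timing and PGCLC source at once, which cannot be told apart.

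The BPS lineage was read in libraries of its own. There, 5497 of 16668 genes (33.0%) were called higher and 5620 (33.7%) lower. Of the genes called higher in the vehicle lineage, 5696 were tested and 4935 called higher (86.6%, and 92.5% of the 5335 called higher there), with 3 called lower, and of those called lower, 6529 were tested and 5126 called lower (78.5%, and 92.8% of 5521), with 1 called higher. In this set BPS iPSC replicate 2 stood apart, with a mean chi-square per gene of 57.8 and 55.7 against the other BPS iPSC libraries, which differed by 5.94. Without it, 5979 genes were called higher and 6317 lower. The interaction of cell type and lineage was called for 1 of 17247 genes (0.00580%), and 1936 genes had an unadjusted p below 0.05. The 1 gene was Ccn2, a matrix-associated growth factor, whose difference was -0.71 in the BPS lineage and 0.23 in the vehicle lineage (BPS minus vehicle -0.95, interaction adjusted p 0.0229). It is named as the only call, and the call was lost when any 1 of 8 of the 12 libraries was left out. Without BPS iPSC replicate 2, 1 gene was called as well. The Nanog, Prdm1, Tfap2c and Nanos3 interactions were not called, which does not show that the lineages were alike.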

How the data were processed

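RNA was read from poly(A)-selected, strand-marked libraries. Per the labels and the study's methods, the authors used FastQC, then Rsubread for alignment and gene counts on mm10 (annotation and strand setting: not given in the sources used here), and with edgeR turned the counts into the deposited log2 CPM (TMM-scaled), with 0.0313 CPM added. The values step in whole reads (at least 99.9% of values within 0.05 reads in each of 42 libraries, 26693847 to 44524376 reads), from which totals and ratios were taken, with intervals that cover counting error only. Replicates of a group differed from each other beyond sampling noise in all pairs. No column was left unused.

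The 6 libraries were fitted with limma 3.58.1 (limma-trend, R 4.3.3) on genes that reached a CPM of 0.5 in 3 libraries or more, with Benjamini-Hochberg adjustment over all genes tested. Both interactions used 12 libraries, and summed levels an exact permutation test written in Python 3.11.15. The intervals of read ratios were computed with scipy 1.17.1. The fit was tested on simulated data. Of 22186 rows, 1222 carry a copy suffix and can share reads with a near-identical copy. Levels between genes were compared per kilobase of exon. Named genes were the 4 markers, the 15 largest called increases and decreases (mean CPM of at least 5 in the higher group, groups apart, no copy suffix), up to 6 of smallest adjusted p per list (mean CPM of at least 1 in a group), members called against their list's direction and the 5 highest genes of each group. Others, among them Dppa3, Lin28a, Sox2, Dnmt1, Dnmt3l, Tet1, Meg3 and T, were named for their role after their values were seen. The members and the 33 lists were chosen with earlier results of these data known. Alternatives were an added CPM of 0.25 or 4, no filter or a CPM of at least 5, upper quartile and median ratio rescaling, a replicate block, limma-voom on the recovered reads, fits of 12 or 42 libraries, and leaving out each replicate.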

Additional observations from a re-analysis of the deposited data

Results flagged for a closer look

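The PGCLC minus iPSC difference of the propagation experiment was set against that of the other cultures by the interaction test of limma over 12 libraries. The interaction was called for 162 of 261 named genes, and given here are 25: those of the 4 markers and the 30 largest changes with a called interaction, and the other named genes whose called differences had opposite signs. The value given is the difference of differences, propagation minus other cultures, on the log2 scale. The interaction is called for 43.5% of all genes tested, so flags of this kind are common in these data, and their causes were not tested.

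Among the markers it was Nanog alone, at -0.544 (adjusted p 0.00054): the fall was -1.27 in the propagation experiment and -0.72 in the other cultures. Among the largest increases, the values were 4.09 for Igf2, 3.2 for H19, 3.08 for Ccdc80, 2 for Pcdh7, 1.61 for Msx2, 1.6 for Car4 and 0.754 for Pmp22. The last 5 had few or 0 reads in iPSCs, where the added CPM bears on the size of the difference. These values alone thus do not show a larger step. Pmp22 had mean levels of 166.9 CPM in PGCLCs and 0.119 CPM in iPSCs of the propagation experiment. In the other cultures these were 74.9 CPM in PGCLCs and 0.0823 CPM in iPSCs, so the PGCLC levels differed between the sets. Ccdc80 had 16.3 CPM in PGCLCs and 0 CPM in iPSCs, against 5.91 CPM in PGCLCs and 0.0706 CPM in iPSCs of the other cultures. Mean levels of Pcdh7 were 38.8 CPM in PGCLCs and 0 CPM in iPSCs of the propagation experiment, and 29.9 CPM in PGCLCs and 0.0693 CPM in iPSCs of the other cultures. Those of Car4 were 25.7 CPM in PGCLCs and 0 CPM in iPSCs, and in the other cultures 17.7 CPM in PGCLCs and 0.0352 CPM in iPSCs. Those of Msx2 were 88.3 CPM in PGCLCs and 0.105 CPM in iPSCs, and in the other cultures 78.5 CPM in PGCLCs and 0.319 CPM in iPSCs. For Igf2 the mean level was 2049 CPM in PGCLCs and 0.561 CPM in iPSCs of the propagation experiment, and 721.5 CPM in PGCLCs and 3.55 CPM in iPSCs of the other cultures, so that both cell types differed between the sets. Among the largest decreases, the values were -2.28 for Spic, -1.95 for Vwf, -1.2 for Rac2, 3.33 for Khdc1c and 1.1 for Pdzrn4. The last 3 have few reads in PGCLCs, where the added CPM bears on the difference as well. Khdc1c had a mean of 0.315 CPM in PGCLCs of the propagation experiment and 0.0317 CPM in PGCLCs of the other cultures. Pdzrn4 had means of 0.142 CPM and 0.110 CPM in the same groups. Its iPSC means were 8.26 CPM in the propagation experiment and 14.8 CPM in the other cultures.

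In 12 genes the called differences had opposite signs in the 2 sets. Tcf7l1 of the WNT list (-1.01) and the NODAL pathway genes Lefty2 (-2.1), Nodal (-0.326) and Tdgf1 (-0.58) were lower in PGCLCs of the propagation experiment and higher in PGCLCs of the other cultures. The same held for the replication genes Cdt1 (-0.995) and Mcm2 (-0.698), the glycolysis gene Tpi1 (-0.982), the immediate early gene Ier2 (-0.485) and the receptor genes Nr3c2 (-2.31) and Ahr (-0.741). The histone methyltransferase genes Kmt2a (0.438) and Dot1l (0.286) were higher in PGCLCs of the propagation experiment and lower in PGCLCs of the other cultures. Lefty2 had mean levels of 261.2 CPM in PGCLCs and 469.2 CPM in iPSCs of the propagation experiment, against 398.2 CPM in PGCLCs and 168.9 CPM in iPSCs of the other cultures.

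Between the lineages, Ccn2 was flagged by its interaction of -0.945, BPS minus vehicle, with mean levels of 36.7 CPM in PGCLCs and 60.1 CPM in iPSCs of the BPS lineage and 40.9 CPM in PGCLCs and 34.6 CPM in iPSCs of the vehicle lineage. No group held 4 libraries or more, so single libraries were not tested as outliers.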

How the results depend on the processing

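Counts of called genes stayed within 1.5 times of those reported under the settings tried, except for the following. Genes called and at least 2-fold higher in PGCLCs came to 1411 with a CPM of at least 5 and to 1160 with an added CPM of 4, and those at least 2-fold lower to 1097 and 768. Both settings act on genes of few reads, by testing fewer of them or by shrinking their differences. Without a filter, 6823 genes were called higher and 7111 lower (4014 and 2572 at least 2-fold). Rescaling moved the balance: 6136 higher and 6164 lower with the upper quartile, and 6206 and 6071 with median ratios. Limma-voom gave 5739 and 6635, the 12-library fit 5279 and 5911 and the 42-library fit 5784 and 6539. Leaving out 1 library at a time gave 5346 to 5931 higher and 6111 to 6891 lower (2798 to 2891 and 1796 to 2064 at least 2-fold), in the other cultures 6335 to 6499 and 6835 to 6996, in the BPS lineage 4791 to 5979 and 4784 to 6317, and for the interaction with experiment 3338 to 4198 and 3271 to 3936. The interaction with lineage gave 0 to 1 higher and 0 to 1 lower: 0 genes were lower without 8 of the 12 libraries and under the replicate block, and 1 was higher without iPSC vehicle replicate 3. The causes were not tested.

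Libraries of the same number did not deviate together (correlations of -0.074, -0.0097 and -0.087 for the 3 pairs). These correlations cannot show whether PGCLC and iPSC libraries of the same number came from the same culture. With the replicate block, 5615 genes were called higher and 6425 lower. Of 261 named genes tested, 255 were called and 245 kept direction and call in every setting in which they were tested. A gene below the filter of a setting was not tested in it. Pou5f1 lost its call in the 42-library fit alone (adjusted p 0.161). Ahr, Alpl, Bub1, Ccnb2, Dot1l, Foxd3, Icam1, Id4, Ifitm2, Kit, Kmt2a, Nodal, Nr4a1 and Tdgf1 lost theirs in at least 1 setting, and Lars2 gained one. No called difference changed direction. With a CPM of at least 5, 15 HOX genes were called higher in place of 23, and 2 and 5 germline genes higher and lower in place of 7 and 8. At 3 against 3 libraries the permutation test of a single value cannot go below 0.1.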

Other observations

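Of 13 hormone and nuclear receptor genes tested, 5 were called higher in PGCLCs and 5 lower, and in the other cultures 10 of 14 were higher and 3 lower. The retinoic acid receptor gene Rarg rose by 1.64, the glucocorticoid receptor gene Nr3c1 by 1.38 and the progesterone receptor gene Pgr by 1.65, while Rara differed by -0.81 and the orphan receptor gene Esrrb by -0.94. Of 19 genes of adhesion, migration and the cell surface, 12 were higher and 7 lower, against 34.9% and 40.1% of all genes tested.

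Across all genes, 11 were called at least 2-fold in opposite directions in the 2 sets. Of the Xlr5 family on the X chromosome, Xlr5a differed by -3.74 in the propagation experiment and by 3.42 in the other cultures, and Xlr5b by -3.12 and by 2.26. Members of this family are near-identical copies, so reads can be shared between them. Xlr5a had mean levels of 0.183 CPM in PGCLCs and 2.10 CPM in iPSCs of the propagation experiment, against 1.03 CPM in PGCLCs and 0.0839 CPM in iPSCs of the other cultures.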
